A study of Rattus norvegicus with 12 samples.

Results

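A set of 10 heat shock genes was followed in pancreatic islets of rat offspring: the small heat shock proteins Hspb6, Hspb1, Hspb8 and Cryab, and the cytosolic chaperones Hspa1a, Hspa1b, Hspa8, Hsp90aa1, Dnajb1 and Hsph1. They are 10 of the 17407 gene entries of the deposited table, found by gene symbol, and all 10 passed the filter on low values that left 12339 genes for testing. The set was chosen because Hspb6 was lower and Hspa1b higher in offspring of dams with gestational diabetes mellitus (GDM), so for these genes the sizes of differences between dams are a description, printed with no p-value. For the members, p-values are given for the weaning diet, for its interaction with the dam and for relations with measures of the libraries within each kind of dam. Chaperone and marker genes outside the set were also tested between dams.

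The islets came from Sprague-Dawley rats at 15 weeks of age. The dams, 6 per diet, ate either a low-fat diet (LF, 10% of it fat) and stayed lean, or a high-fat and sucrose diet (HFS, 45% fat) that induced GDM, from 6 weeks before mating until weaning. All sires were on the LF diet, and pups of both kinds of dam then ate LF or HFS diet for 12 weeks. The 4 groups of 3 libraries are Lean-LF (lean dam, LF weaning), Lean-HFS (lean dam, HFS weaning), GDM-LF (HFS-fed dam with GDM, LF weaning) and GDM-HFS (HFS-fed dam with GDM, HFS weaning). GDM and the HFS diet of the dam cannot be told apart in this design. The labels used here name neither litter nor sex, and p-values therefore cover only the spread among these 12 samples. The islets were freed by collagenase digestion at 37 C and picked by hand.

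Heat shock proteins are molecular chaperones. Small heat shock proteins hold unfolding proteins in a soluble state without using ATP, HSP70 proteins bind and release exposed stretches in cycles of ATP hydrolysis that J-domain (HSP40) partners start and HSP110 exchange factors complete, and HSP90 acts later on folding clients such as kinases and steroid receptors. Some members, such as Hspa8, are made in most cells at all times, whereas others, such as Hspa1a and Hspa1b, are made on demand when heat shock factor 1 (Hsf1) binds heat shock elements in their promoters.

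The heat shock element is a run of inverted repeats of GAA, and it is shown here because members with and without a difference between dams carry it. The search used 2 units (GAANNTTC or TTCNNGAA) and 3 units (GAANNTTCNNGAA or TTCNNGAANNTTC) on both strands, and each 3-unit match contains 2 overlapping 2-unit matches. RefSeq promoters of build GRCr8 were matched for 7 of the 10 members. In the 250 bases before the start, Hspa8 held 4 matches of 2 units, Hsph1 held 3, Hspb6 and Hspb1 held 2 each, and Hspb8 and Dnajb1 held 1 each. Hspa1a held 0 in this window, which says only that these letters are not in it. Matches of 3 units were found 2 times in the promoter of Hspa8 and 1 time in that of Hsph1. Of all 33469 promoters, 13.5% held a 2-unit match and 0.663% a 3-unit match. The stretches below read 5′ to 3′ along the gene, with matches in capitals. They lie at chr12:10427253-10427367 (plus strand) for Hsph1, chr12:26432387-26432446 (minus strand) for Hspb1, chr1:94934122-94934236 (plus strand) for Hspb6, chr12:45837248-45837307 (plus strand) for Hspb8 and chr19:41431142-41431201 (minus strand) for Dnajb1.
Hsph1: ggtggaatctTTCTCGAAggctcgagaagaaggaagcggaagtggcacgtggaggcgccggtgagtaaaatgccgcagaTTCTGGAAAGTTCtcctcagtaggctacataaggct
Hspb1: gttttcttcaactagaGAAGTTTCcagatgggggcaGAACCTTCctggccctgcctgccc
Hspb6: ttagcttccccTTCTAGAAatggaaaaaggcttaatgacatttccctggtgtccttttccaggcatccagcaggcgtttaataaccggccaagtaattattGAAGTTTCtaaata
Hspb8: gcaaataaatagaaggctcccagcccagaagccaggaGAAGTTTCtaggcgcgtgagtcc
Dnajb1: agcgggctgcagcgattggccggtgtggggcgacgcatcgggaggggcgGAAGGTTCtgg
Hspb6, which was lower in offspring of GDM dams, and Dnajb1 and Hspb8, which had their highest means in GDM-LF, all carry 2-unit matches. A match is a description of the sequence and not a site of binding.

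The libraries held 11469290 to 27492858 reads over genes, and the values below are deposited values rescaled between libraries (scaled values, in which 1 unit stands for 1.96 to 5.02 reads before rescaling). Insulin transcripts and other beta cell markers were present throughout, with 9 of 9 markers above the filter. Between dams 6 of these had a negative and 3 a positive difference. Nkx6-1 fell (log2 -0.87 ± 0.26, limma adjusted p = 0.0480), and edgeR called 0 and DESeq2 4 of the 9. Ribosomal RNA took 1.84 to 30.4% of gene reads in Lean-LF, 24.7 to 39.0% in Lean-HFS, 7.0 to 8.55% in GDM-LF and 1.84 to 4.34% in GDM-HFS. A length measure, the median log2 deviation of transcripts under 1000 bases less that of transcripts over 4000 bases, ran from -0.73 to -0.08 in the lean groups and from -0.07 to 0.74 in the GDM groups. GDM-LF 2 stood apart: it was highest of the 12 libraries for 11 of 11 acinar markers, genes of the enzyme-secreting exocrine pancreas, and for 15 of 16 immediate early genes, which cells switch on within minutes of a stimulus. It was also highest for 4 of 4 erythrocyte markers, with a summed level of 5067 against 62 to 708 in lean libraries, and of these Hba-a1 rose between dams (log2 1.70 ± 0.51, limma adjusted p = 0.0490). Of the 16 immediate early genes, 13 had a positive and 3 a negative difference between dams. Ier3 (log2 0.99 ± 0.23) and Junb (0.88 ± 0.21) passed in limma (adjusted p = 0.0206 and 0.0226), and edgeR and DESeq2 called 3 each. Titles carry a letter with no stated meaning, K for 3 GDM libraries (GDM-HFS 3, GDM-LF 1 and GDM-LF 2) and G for the other 9. As the RNA is from whole islets, fewer cells of a type and less RNA per cell cannot be told apart.

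Hspb6 (also called HSP20), a small heat shock protein best known from muscle, was lower in every library from a GDM dam than in any library from a lean dam. Its row lies on chromosome 1, 90162932 to 90165071 (build rn5, plus strand). Scaled values were 133, 119 and 46.0 in Lean-LF, 112, 74.8 and 70.6 in Lean-HFS, 27.9, 20.2 and 42.8 in GDM-LF and 38.6, 22.1 and 16.2 in GDM-HFS. The lowest lean library, Lean-LF 3, and the highest GDM library, GDM-LF 3, were close, and the other values were well apart. The group means were 99.5 ± 46.9, 86.0 ± 23.1, 30.3 ± 11.5 and 25.6 ± 11.6 (SD, n = 3 each). The difference of GDM from lean dams was -1.61 ± 0.42 (SE) on the log2 scale on LF weaning and -1.76 ± 0.42 on HFS weaning. Averaged over the diets it was -1.69 ± 0.30, and it was -1.27 without the 3 K libraries and -0.98 with the log2 share of rRNA reads as a covariate. With that covariate it was -1.56 ± 0.34 on LF weaning but -0.39 ± 0.58 on HFS weaning. It was -1.90 after each library's trend on transcript length was removed.

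Markers of smooth muscle and pericytes were read beside Hspb6, since it is best known from muscle. Of 12 such markers 9 were tested, 5 with a positive difference between dams (0.38 for Tpm2 to 1.03 for Tagln) and 4 with a negative one (-0.28 for Des, -0.32 for Mylk, -0.43 for Rgs5 and -0.69 for Pdgfrb), and 0 passed in limma (0 at an unadjusted p under 0.05, 0 by edgeR and 0 by DESeq2). Their summed level ran from 303 to 514 in lean and from 246 to 686 in GDM libraries, highest in GDM-LF 1, and their part in the difference of Hspb6 was not tested. Cnn1, Lmod1 and Actg2, which mark smooth muscle, had means under 1. Of 8 endothelial markers, 6 had a negative difference between dams and 2 a positive one (Tek 0.19 and Vwf 0.03). Kdr and Eng passed in limma (log2 -0.87 ± 0.26 and -0.75 ± 0.21, limma adjusted p = 0.0462 and 0.0415), and edgeR called 1 and DESeq2 3 of the 8. The summed endothelial level was 579 to 1339 in lean and 379 to 958 in GDM libraries. The part of endothelial cells in the difference of Hspb6 was not tested. Within each kind of dam, Hspb6 was lower where the length measure was higher. The correlation over the 6 lean libraries was r = -0.849 (rho = -0.886, exact permutation p = 0.0111 and 0.0333, adjusted over 8 relations 0.0556 and 0.0889), and r = -0.878 without Lean-LF 1 and Lean-LF 2. Over the 6 GDM libraries it was r = -0.726 (rho = -0.829, exact permutation p = 0.10 and 0.0583, adjusted 0.200 and 0.117), and r = -0.925 without GDM-LF 1 and GDM-HFS 3. With the log2 share of rRNA reads, Hspb6 had r = 0.628 over the lean libraries (exact permutation p = 0.233, adjusted 0.373). Over the GDM libraries it had r = 0.408 (exact permutation p = 0.406, adjusted 0.464), and r = -0.629 without GDM-HFS 2 and GDM-HFS 3. These relations were chosen after the values were seen, and none passed after adjustment. The part of the length measure in the difference between dams was not tested beyond the value with the length trend removed.

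The row of Hspb6 ends where that of Lin37, on the opposite strand, also has its 3′ end (90165072), so the genes lie tail to tail, and reads of both strands were counted. How many reads came from its neighbour is not known from these values.

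**Figure D1:**
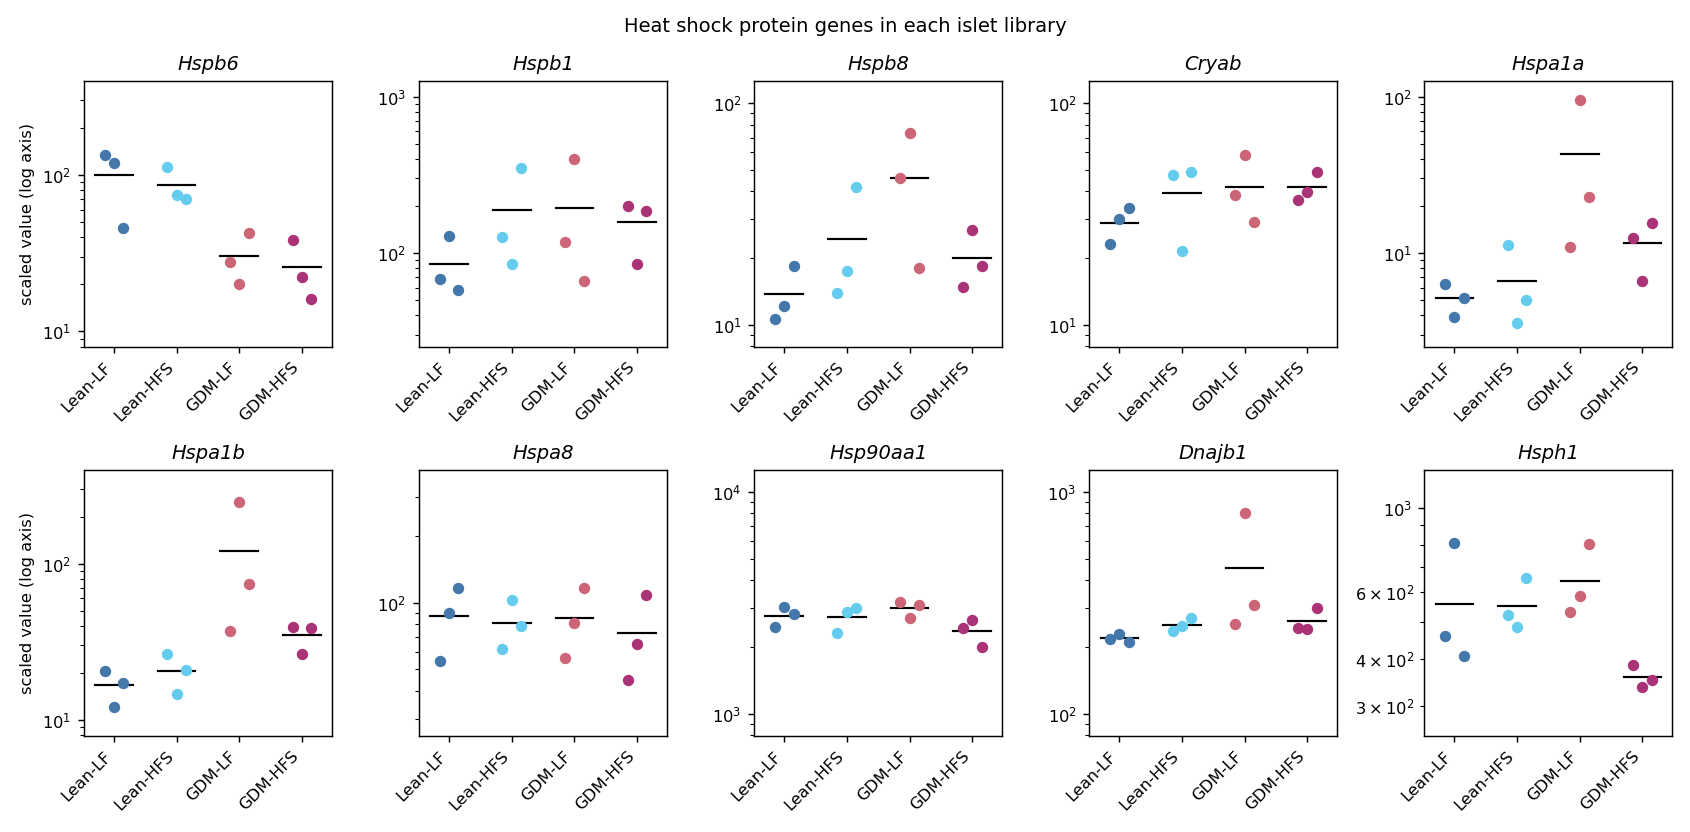
Scaled value (log axis) of the 10 heat shock genes in each of the 12 libraries, with points for libraries, a black line for the mean of each group and 1 panel per gene. Hspb6 lies lower in both GDM groups, and GDM-LF 2 is the high point of Hspa1a, Hspa1b, Dnajb1, Hspb1 and Hspb8.

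Hspb1 (HSP27), a stress-inducible small heat shock protein that also acts on actin filaments, varied more between libraries of 1 group than between groups. Its values on chromosome 12 (25837072 to 25838733, minus strand) were 67.9, 128 and 58.5 in Lean-LF, 126, 85.6 and 352 in Lean-HFS, 118, 399 and 66.7 in GDM-LF and 200, 85.6 and 186 in GDM-HFS. The ranges of all groups overlapped, and single libraries, Lean-HFS 3 and GDM-LF 2, were high. These are also the libraries with the highest acinar marker level within their kind of dam. Over the 6 lean libraries, Hspb1 and the mean log2 acinar level had r = 0.947 (rho = 0.943, exact permutation p = 0.0139 and 0.0167, adjusted 0.0556 and 0.0889), and r = 0.794 without Lean-LF 1 and Lean-HFS 3. Over the 6 GDM libraries they had r = 0.877 (rho = 0.886, exact permutation p = 0.0389 and 0.0333, adjusted 0.104 and 0.0889), and r = 0.489 without GDM-LF 2 and GDM-LF 3. The relation in GDM libraries thus rests on those libraries, and the part of acinar cells in the level of Hspb1 was not tested beyond these relations.

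**Figure D2:**
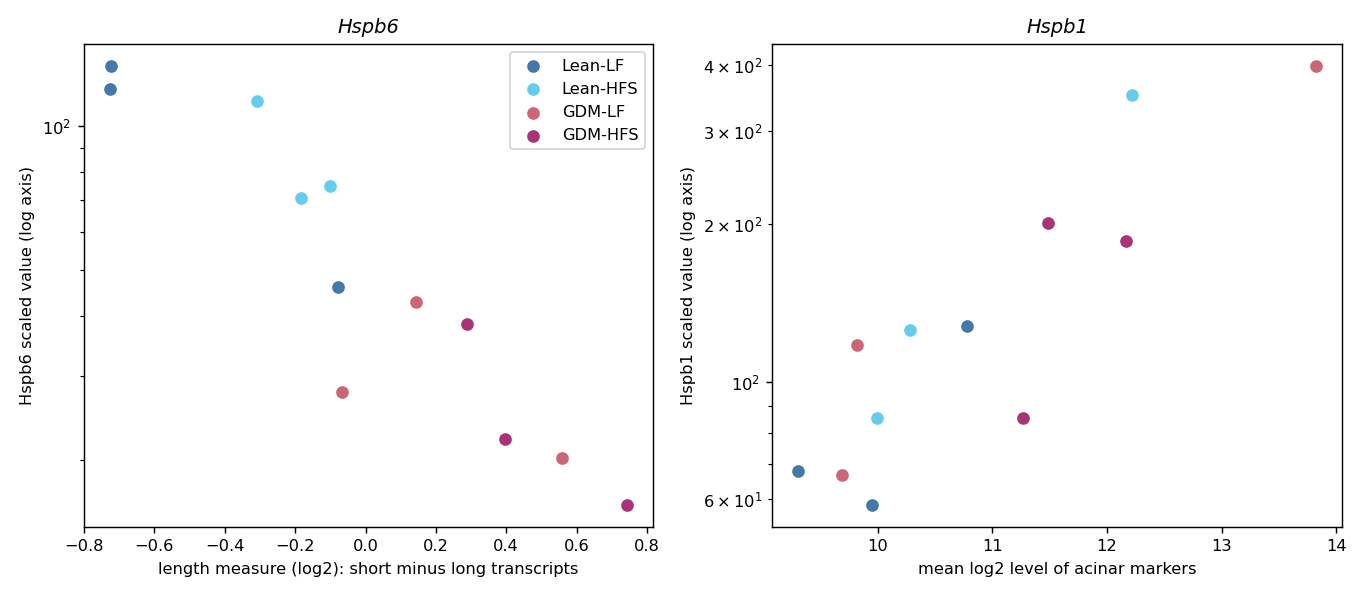
Left, scaled value of Hspb6 against the length measure of each library, and right, scaled value of Hspb1 against the mean log2 level of acinar markers, with log y axes, 1 point per library and groups marked by colour. Lean and GDM libraries separate along both axes of the left panel, and Lean-HFS 3 and GDM-LF 2 are the high points of the right panel.

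Hspb8 (HSP22), which works with the co-chaperone Bag3 in clearing misfolded proteins by autophagy, had its highest mean in GDM-LF. Its values (chromosome 12, 47717762 to 47731883) were 10.6, 12.2 and 18.4 in Lean-LF, 13.9, 17.5 and 41.9 in Lean-HFS, 45.9, 73.5 and 18.1 in GDM-LF and 14.8, 26.9 and 18.5 in GDM-HFS. GDM-LF 1 and GDM-LF 2 were the highest libraries, whereas GDM-LF 3 lay within the range of Lean-LF. The difference between dams was 1.49 ± 0.50 on LF and -0.15 ± 0.50 on HFS weaning. GDM-LF 1 and GDM-LF 2 carry the title letter K. The difference on LF weaning was 0.41 without the K libraries and 1.05 ± 0.50 without GDM-LF 2. Bag3 was also highest in GDM-LF 2, at 228 against 23.4 to 93.3 in the other libraries. Cryab (alpha B-crystallin), first known from the eye lens, had values of 23.2, 30.0 and 33.6, then 47.5, 21.5 and 49.2, then 38.4, 58.7 and 29.1, and 36.6, 39.8 and 49.0 in the same order of groups. All groups of Cryab (chromosome 8, 53775779 to 53779782) overlapped, and its difference between dams averaged 0.32 ± 0.24. That difference was -0.003 ± 0.22 after each library's trend on transcript length was removed, and 0.04 without the K libraries. The neighbour of Cryab, Hspb2, on the opposite strand 724 bases away, was near 0 in all groups, with means of 0.149 to 1.67.

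The inducible HSP70 genes Hspa1a and Hspa1b lie side by side on chromosome 20 in the major histocompatibility region and encode near-identical proteins. Hspa1b had values of 20.5, 12.2 and 17.3 in Lean-LF, 26.4, 14.7 and 20.9 in Lean-HFS, 36.9, 248 and 73.7 in GDM-LF and 39.3, 26.4 and 38.6 in GDM-HFS. Every GDM library was above every lean library, but Lean-HFS 1 and GDM-HFS 2 were nearly equal, and the spread within GDM-LF was set by GDM-LF 2. Group means were 16.7 ± 4.20, 20.7 ± 5.86, 120 ± 113 and 34.8 ± 7.24 (SD, n = 3 each). The difference between dams was 2.36 ± 0.52 on LF and 0.74 ± 0.52 on HFS weaning, and the value on LF was 1.62 ± 0.38 without GDM-LF 2.

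Hspa1a followed the same pattern at lower values, 6.4, 3.9 and 5.2 in Lean-LF, 11.2, 3.6 and 5.0 in Lean-HFS, 10.9, 95.2 and 23.0 in GDM-LF and 12.6, 6.7 and 15.6 in GDM-HFS. Its lean and GDM libraries overlapped, since Lean-HFS 1 was above GDM-LF 1 and GDM-HFS 2. The difference between dams was 2.31 ± 0.63 on LF and 0.79 ± 0.63 on HFS weaning, and 1.48 on LF without GDM-LF 2. These values rest on few reads, 9 to 339 per library for Hspa1a and 28 to 885 for Hspa1b.

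The rows of the HSP70 pair are not independent. In the deposited table, that of Hspa1a (6958038 to 7033025, minus strand) and that of Hspa1b (6956234 to 6962151, minus strand) overlap by 4114 bases, and another entry, LOC108348108 (6957724 to 6960179), lies wholly within Hspa1b. That entry held 82.1 to 100% as many reads as Hspa1b in each library, and Hspa1a 23.9 to 42.4% as many. Summed, Hspa1a and Hspa1b differed between dams by 1.58 ± 0.38, close to either gene alone. Hspa1l, a neighbouring HSP70 gene known for its role in testis, was also highest in GDM-LF 2, at 15.2 against at most 3.14 elsewhere. Its row, on the opposite strand, overlaps that of Hspa1a by 469 bases, and reads of both strands were counted, so it is not independent either. The row of Hspa1a also spans those of RT1-CE3, RT1-CE4 and RT1-CE5. How many reads these rows share is not known from these values.

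Dnajb1 (HSP40), the J-domain partner of inducible HSP70, stood high in 1 library. Its values (chromosome 19, 35726334 to 35730075) were 217, 230 and 211 in Lean-LF, 235, 249 and 269 in Lean-HFS, 253, 803 and 308 in GDM-LF and 244, 240 and 299.9 in GDM-HFS. GDM-LF 2 was far above the rest, and the other 11 libraries lay between 211 and 308. The difference between dams averaged 0.45 ± 0.22, and 0.20 without GDM-LF 2. On HFS weaning it was 0.05 ± 0.31.

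Hsph1 (HSP110), the exchange factor of HSP70 (chromosome 12, 8423546 to 8442481), was lowest in GDM-HFS. Its values were 459, 810 and 408 in Lean-LF, 521, 485 and 652 in Lean-HFS, 531, 587 and 801 in GDM-LF and 386, 338 and 353 in GDM-HFS. The GDM-HFS libraries lay below the other 9 libraries, close together and without overlap. The difference between dams was 0.24 ± 0.24 on LF and -0.61 ± 0.24 on HFS weaning. With the rRNA share as a covariate the latter was 0.05 ± 0.35, and the average over both diets was 0.16 in place of -0.19.

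Hsp90aa1, the stress-inducible form of cytosolic HSP90 (chromosome 6, 144182012 to 144187540), was the most even member. It had values of 2446, 3011 and 2813 in Lean-LF, 2310, 2859 and 2997 in Lean-HFS, 3185, 2705 and 3087 in GDM-LF and 2445, 2644 and 1995 in GDM-HFS. Averaged over weaning diets it differed between dams by -0.04 ± 0.13.

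Hspa8 (HSC70), the HSP70 that cells make at all times, had values of 54.8, 89.6 and 116 in Lean-LF, 61.8, 103 and 78.3 in Lean-HFS, 56.5, 81.4 and 117 in GDM-LF and 44.9, 65.4 and 108 in GDM-HFS. All groups overlapped, and the difference between dams averaged -0.12 ± 0.26. Its row, however, is placed on chromosome 11 (17153158 to 17155257), with a length of 2097 bases over a span of 2100, whereas the annotation in the same row and RefSeq put Hspa8 on chromosome 8. Such a mismatch was found for 213 of 17270 rows with both positions. The reads of this row may therefore not be those of Hspa8, and its values are given for the row only.

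**Figure D3:**
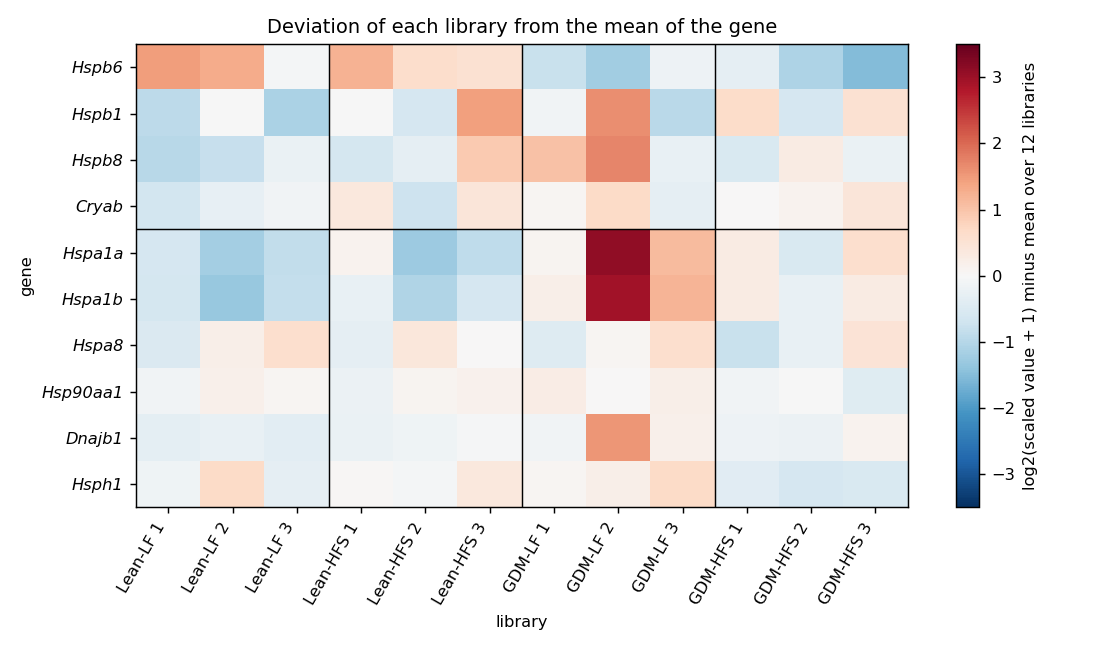
Deviation of each library from the gene's mean over the 12 libraries (log2 of scaled value + 1, colour scale from -3.5 to 3.5) for the 10 members in rows and the 12 libraries in columns. In the row of Hspb6, 5 of 6 lean libraries lie above the mean, and Lean-LF 3 and the 6 GDM libraries lie below it. Of those below, Lean-LF 3 and GDM-LF 3 are the closest to the mean. The column of GDM-LF 2 holds the strongest positive cells, for Hspa1a and Hspa1b.

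The highest library for 6 of the 10 members was GDM-LF 2, and these include the overlapping rows of Hspa1a and Hspa1b. The share of all genes that were highest in GDM-LF 2 was not counted, so nothing is read from the 6. Over the median of the other 11 libraries, this library stood at 14.3-fold for Hspa1a, 9.40-fold for Hspa1b, 4.07-fold for Hspb8, 3.39-fold for Hspb1, 3.30-fold for Dnajb1 and 1.60-fold for Cryab. Hsph1 (1.21-fold), Hspa8 (1.04-fold) and Hsp90aa1 (0.962-fold) were near that median, and Hspb6 was under it (0.439-fold). The summed acinar level was 416746 in this library, against 18391 to 151730 in the lean ones, and the summed level of immediate early genes was 19171 against 3954 to 5494. Hspa1b and the mean log2 acinar level had r = 0.028 over the 6 lean libraries (exact permutation p = 0.967, adjusted 0.967). Over the 6 GDM libraries they had r = 0.574 (exact permutation p = 0.283, adjusted 0.378), and r = 0.067 without GDM-LF 2 and GDM-LF 3. Beyond the relations given, the part of acinar or red blood cells in the values of this library was not tested.

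In the comparison of dams averaged over weaning diets, Hspb6, Hspa1a and Hspa1b were past the threshold (limma with Benjamini-Hochberg adjustment), 3 of 10 members, where 11.6% of all genes tested were. The choice of members used this contrast, so nothing is read from the count. Libraries from lean and GDM dams did not overlap for Hspa1b, higher in the latter, and Hspb6, lower, where 2.8% and 2.32% of all genes did not overlap in those directions. On LF weaning alone, Hspa1a, Hspa1b and Dnajb1 were higher and Hspb6 lower without overlap, where 12.9% and 12.4% of all genes were. On HFS weaning alone, Hspa1b was higher and Hspb6 and Hsph1 lower without overlap, where 12.7% and 12.1% of all genes were. The difference of the other 7 members averaged -0.19 to 0.67 on the log2 scale, with Hspb8 at the top and Hsph1 at the bottom.

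The tests that the choice of members did not use were of weaning diet. No member passed in offspring of lean dams, of GDM dams, averaged over both, or in the interaction (limma with Benjamini-Hochberg adjustment, 0 of 10 in each, where 0% of all 12339 genes passed; edgeR and DESeq2 also called 0 members). At an unadjusted p under 0.05 the members called were 0 of 10 in offspring of lean dams (2.18% of all genes), 2 in offspring of GDM dams (9.63%), 1 averaged over dams (4.95%) and 3 in the interaction (5.92%). The values that follow describe differences that did not pass.

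In offspring of GDM dams, HFS weaning was compared with LF weaning. Hsph1 differed by -0.81 ± 0.24 on the log2 scale (95% interval -1.33 to -0.30, limma adjusted p = 0.470), with all 3 GDM-HFS libraries below all 3 GDM-LF libraries, and Hspa1b differed by -1.34 ± 0.52 (limma adjusted p = 0.504). Hspa1a (-1.33 ± 0.63), Hspb8 (-0.99 ± 0.50), Dnajb1 (-0.61 ± 0.31) and Hsp90aa1 (-0.35 ± 0.18) also had negative differences, with limma adjusted p values between 0.516 and 0.547. Without GDM-LF 2 the difference was -0.59 for Hspa1b, -0.49 for Hspa1a, -0.54 for Hspb8 and -0.10 for Dnajb1, whereas it was -0.86 for Hsph1 and -0.42 for Hsp90aa1. Without the K libraries that of Hspb8 turned to 0.14. All 6 cytosolic members had a lower mean log2 value in GDM-HFS than in GDM-LF, with a median of -0.71 against -0.00 over all genes tested. These 6 include the overlapping rows of Hspa1a and Hspa1b, and the row of Hspa8 (-0.25 ± 0.36), whose placement is in doubt. The share of all genes with a lower mean was not counted, so nothing is read from the 6. Of the 6, Hsp90aa1 and Hsph1 had libraries that did not overlap, where 6.61% of all genes were lower without overlap. No member was higher without overlap (7.42% of all genes). Of the small heat shock proteins, Hspb6 differed by -0.26 ± 0.42, Cryab by 0.04 ± 0.34 and Hspb1 by 0.01 ± 0.62.

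In offspring of lean dams, 4 of the 6 cytosolic members had a positive difference between weaning diets and 2 a negative one. Hspa1a differed by 0.20 ± 0.63, Dnajb1 by 0.19 ± 0.31 and Hspa8 by -0.07 ± 0.36. Hspa1b differed by 0.29 ± 0.52, Hsph1 by 0.04 ± 0.24 and Hsp90aa1 by -0.02 ± 0.18 (95% interval -0.42 to 0.37), all with an adjusted p of 1 by limma. Hspb6 differed by -0.10 ± 0.42 (95% interval -1.01 to 0.81). Hspb1 (0.96 ± 0.62) and Hspb8 (0.66 ± 0.50) had the largest differences, both through Lean-HFS 3, and only Dnajb1 had libraries that did not overlap (higher, where 3.68% of all genes were higher and 3.95% lower without overlap). The 95% intervals were -0.47 to 0.56 for Hsph1 and -0.83 to 1.41 for Hspa1b. Averaged over dams, no member was without overlap (0.0729% of all genes higher, 0.0324% lower), and Hsph1 differed by -0.39 ± 0.17 (limma adjusted p = 0.883).

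The interaction, the diet difference in offspring of GDM dams less that in offspring of lean dams, was negative for all 10 members, and for 50.8% of all genes tested. Over the alternatives the number of negative members was 6 to 10. It was 6 with the values as deposited, where the median of all genes was 0.42, and 9 with the rRNA share as a covariate, where Hspb6 turned to 1.17 ± 0.66 and Hsph1 was -0.21 ± 0.40. It was -1.65 ± 0.70 for Hspb8, -1.63 ± 0.73 for Hspa1b and -0.85 ± 0.34 for Hsph1 (limma adjusted p = 0.784 for each), and -0.16 ± 0.60 (95% interval -1.44 to 1.13) for Hspb6. Without GDM-LF 2 it was -0.88 for Hspa1b, -1.21 for Hspb8 and -0.90 for Hsph1. All 16 immediate early genes were also negative in the interaction, and 16 of 16 were lower in GDM-HFS than in GDM-LF. Of these 0 were past the threshold in limma (2 and 5 at an unadjusted p under 0.05, 0 by edgeR and 0 by DESeq2). GDM-LF 2 was the highest library for 15 of the 16. Their summed level was 19171 in GDM-LF 2, 5371 in the lowest GDM-LF library and at most 7773 in GDM-HFS. Nothing is therefore read from the 16 of 16. Markers of other cells had differences of either sign. Between weaning diets in offspring of GDM dams, 7 of 8 stellate and fibroblast markers (median -1.57) and 6 of 6 duct markers (median -1.27) had negative differences. In the interaction 7 of 8 and 6 of 6 did (medians -1.51 and -1.25). The summed stellate and fibroblast level was 974 to 11183 in GDM-LF, highest in GDM-LF 1, and 1067 to 1291 in GDM-HFS. That of duct markers was 460 to 1691 in GDM-LF, highest in GDM-LF 1 with GDM-LF 2 at 1510, and 418 to 539 in GDM-HFS. By contrast, 9 of 9 beta cell markers (median 0.34) and 10 of 11 acinar markers (median 0.60) had positive differences between weaning diets in offspring of GDM dams. For the interaction, 8 of 9 beta cell and 7 of 8 macrophage markers were positive (medians 0.50 and 0.29), and 7 of 11 acinar markers were negative (median -0.19). The part of any of these cells in the members' values was not tested.

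**Figure D4:**
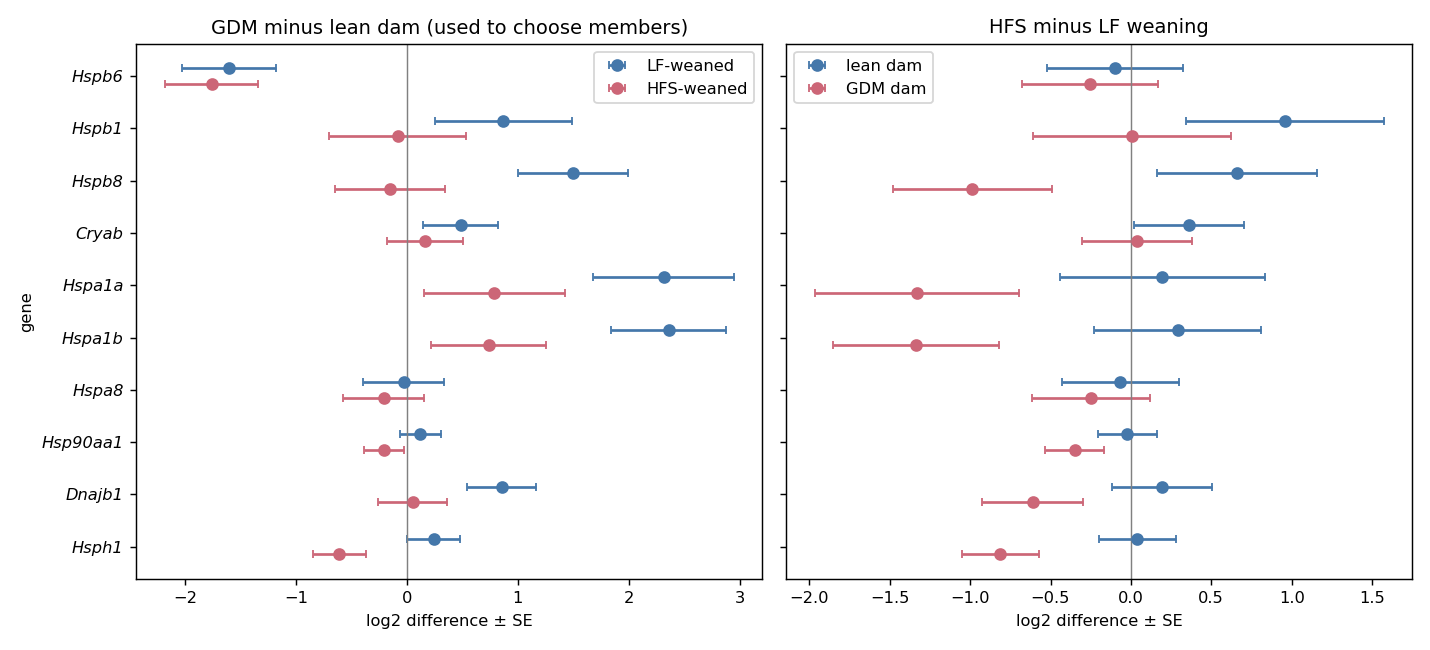
Left, log2 difference of GDM from lean dams on LF and on HFS weaning, and right, log2 difference of HFS from LF weaning in offspring of lean and of GDM dams, for the 10 members, with bars of 1 SE. Differences between dams for Hspa1a and Hspa1b are larger on LF than on HFS weaning, and those of Hspb6 are -1.61 on LF and -1.76 on HFS weaning.

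Divided by transcript length, the members covered a wide range. The mean level per kilobase of scaled value was 978 for Hsp90aa1, followed by 176 for Hspb1, 155 for Hsph1 and 137 for Dnajb1. These 3 overlap in their range over libraries and their order is not resolved. Hspb6 (46.3), Hspa8 (38.8, subject to the placement of its row) and Cryab (38.4) came next and also overlap, and Hspb8 (14.7), Hspa1b (8.11) and Hspa1a (5.17) had the lowest means. The ranges of Hspb8 (6.02 to 41.6) and Hspa1b (2.06 to 42.0) overlap each other and that of Cryab (21.7 to 59.3), so this order is not resolved either. It also rests on the annotated length, since LOC108348108, with nearly the same reads as Hspa1b over 2453 bases in place of 5915, stood at 18.5. In the lean groups Hspb6 stood above Cryab, at 76.3 ± 35.9 per kilobase in Lean-LF against 29.2 ± 5.34, and in GDM-HFS below it, at 19.7 ± 8.92 against 42.2 ± 6.52 (SD, n = 3). The inducible pair was at 1.61 ± 0.39 (Hspa1a) and 2.82 ± 0.71 (Hspa1b) per kilobase in Lean-LF.

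The rest of the chaperone network was taken from 8 lists of 64 genes, of which 59 were tested. Between dams 7 rose and 1 fell in limma (adjusted p under 0.05), and 51 did not pass, and the median difference was 0.05 against 0.03 over all genes. Hspe1, the mitochondrial co-chaperonin HSP10, rose by 1.03 (adjusted p = 0.0152), with lean group means of 418 (LF) and 465 (HFS) and GDM group means of 768 (LF) and 945 (HFS). Hspb11, counted among small heat shock proteins by name and part of the transport complex of cilia, rose by 0.86 (adjusted p = 0.0182), and Grpel1, the exchange factor of mitochondrial HSP70, by 0.62 (adjusted p = 0.0299). Cct4 and Cct5, subunits of the cytosolic chaperonin TRiC that folds actin and tubulin, rose by 0.49 and 0.38 (adjusted p = 0.0399 and 0.0474). All 8 TRiC genes had a positive average difference, the smallest 0.01 ± 0.12 for Cct6a, and GDM-LF 2 was the highest library for 4 of them. The share of all genes with a positive difference was not counted, so nothing is read from the 8. Hspa14 and Dnaja2, an HSP70 and an HSP40 of the cytosol, rose by 0.49 and 0.36 (adjusted p = 0.0431 and 0.0339). Fkbp5, a co-chaperone of HSP90 induced by glucocorticoids, fell by 0.50 (adjusted p = 0.0489).

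The 8 make up 13.6% of the 59, beside 11.6% of all genes tested. None of these 8 passed after each library's trend on transcript length was removed, with the rRNA share as covariate, or without the K libraries. edgeR called 4 of the 59, with none among the HSP70, HSP40 and TRiC genes, and DESeq2 called 11. Of the 8, 2 passed with the acinar level as covariate, 2 with values as deposited and 2 with no mean-variance trend. With 1 library left out, 0 to 8 of them passed, 0 without Lean-LF 1 or Lean-LF 2 and 2 (Hspb11 and Hspe1) without GDM-LF 2. The regulators did not pass: Hsf1 differed by -0.10 (adjusted p = 0.674) and Hsf2 by -0.11 (adjusted p = 0.595). Hsp90ab1, the constant form of HSP90, differed by -0.08, and Bag3 by -0.00. In the weaning diet comparisons and the interaction 0 of the 59 genes passed in limma (0 to 4 at an unadjusted p under 0.05, 0 by edgeR and 0 by DESeq2).

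**Figure D5:**
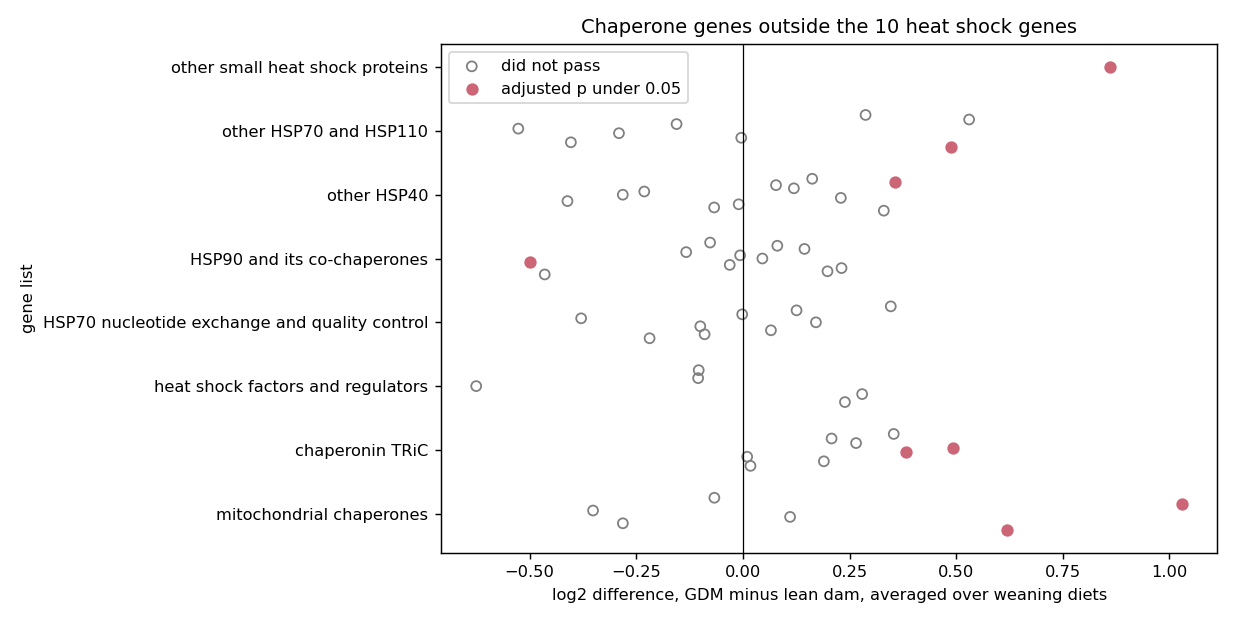
Log2 difference of GDM from lean dams, averaged over weaning diets, for the 59 tested chaperone genes outside the member set in 8 lists, with filled points for an adjusted p under 0.05. Most points lie near 0, and Hspe1 is the highest filled point.

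The genes whose log2 values followed Hspb6 most closely over the 12 libraries were Igsf11 (r = 0.982), Cxxc5 (0.978), Gak (0.975), Tbc1d9b (0.974) and Sh3kbp1 (0.973). Igsf11 had means of 550 and 545 in the lean groups and 248 and 230 in the GDM groups. For Hspa1b they were Hspa1a (0.985), which shares part of its row, then Napsa (0.949), Asgr1 (0.946), Oas1b (0.919) and Ppp1r3a (0.915), and each of these was highest in GDM-LF 2. The points share library, depth and the differences in transcript length described above.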

How the data were processed

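Islet RNA from 12 rat offspring was depleted of ribosomal RNA and sequenced as strand-specific libraries, per the labels' protocols. The submitters' processing notes name STAR 2.5.1b, HOMER 4.9 and DESeq2. Per the file headers, the deposited table holds a depth-scaled signal, with build rn5, exons summed per gene and both strands counted. FPKM stands in the header, yet no division by length was found: 100% of the values, up to 1000 reads, were whole multiples of 1 step per library (tolerance 0.1 of a read). The treatment of multi-mapping reads was not stated in the labels or headers.

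Each library was divided by a median-of-ratios size factor (0.827 to 1.27). The main test was limma 3.58.1 (R 4.3.3) on log2 values with a pseudocount of 1 for the 12339 genes with a mean of at least 1, with 1 mean per group, a mean-variance trend and Benjamini-Hochberg adjustment within each contrast at 0.05, two-sided (median total degrees of freedom 13.37). Differences and standard errors (SE) are on that scale, which understates changes of low genes. The design had assumed FPKM, and the log-scale test was kept. edgeR 4.0.16 and DESeq2 1.42.0 on the recovered reads were alternatives. The members and lists were chosen with earlier results of these data known. Named were all members, list genes past the threshold (up to 4 per list and direction) and the 5 genes most like Hspb6 and Hspa1b; Bag3, Hsf1, Hsf2, Hsp90ab1, Hspb2, Hspa1l and marker genes were added after values were seen.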

Additional observations from a re-analysis of the deposited data

How the results depend on the processing

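Averaged over diets, 1426 genes were past the threshold between dams. The count was 671 with values as deposited and 671 with no mean-variance trend, 667 with the acinar level and 0 with the rRNA share as covariate, 455 with the length trend removed (156 higher, 299 lower, against 756 and 670), 2237 with DESeq2, and 0 without the K libraries, where GDM-LF is a lone library assumed to vary like the others. Leaving out 1 library gave 205 to 2476. Of the members, 3 were past it, but 0 with the rRNA share as covariate and 1 to 3 with 1 library left out (1 without Lean-LF 1, Lean-LF 2 or GDM-HFS 3). The choice of members used this contrast, so nothing is read from these counts of members. The differences of Hspa1a and Hspa1b (1.55 each) were 1.61 and 1.49 with the rRNA share and 1.28 and 1.39 without the K libraries. Weaning diet gave 0 genes, but 2 (averaged), 1 (lean dams) and 33 (GDM dams) with DESeq2, and 0 to 39 in GDM dams with 1 library left out (39 without GDM-LF 3); members called remained 0. Hspb8 reversed in the diet comparison in GDM dams, 0.14 without the K libraries against -0.99. The cause of these shifts was not tested. With the replicate number as a block the count between dams was 1140 and 2 members were past the threshold. Of 18 same-numbered pairs 5 had a correlation over 0.1, and 5 of the 12 libraries were closest to one of their own number. With 3 libraries per group this does not settle whether same-numbered samples share more than the number. Low counts of Hspa1a limit its precision.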
